A study of Mus musculus with 16 samples.

Results

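The genes described here encode receptors and ligands of blood vessels and of axon guidance: VEGF receptors, angiopoietins and Tie receptors, endothelial surface proteins, endothelins, sphingosine-1-phosphate receptors, semaphorins with their plexin and neuropilin receptors, ephrins with their Eph receptors, Slits with their Robo receptors, and the Unc5 netrin receptors. They were picked by a pattern that reads gene symbols and no measured value. The pattern and the gene lists below were, however, drawn up with earlier results of these data known. Counts over them are therefore not independent of the data. The pattern matched 88 genes of the array's annotation. Of these, 61 had a probe set label that could be placed on its values, out of 9866 genes named in all. The other 27, among them Kdr, Edn1, Angpt2 and Plxnd1, were not analysed here. In the deposited table the labels stand apart from their values by a fixed number of rows in each of 3 stretches. The rule places the second stretch 47 rows above, but pairs of probe sets of one gene, members left out, correlated across arrays with a median r of 0.64 at 47 rows below and 0.03 at 47 rows above, so the values below were used. Placed as the rule has it, 11 of 37 tested members were called in OVA against PBS of BALB/c, 6 higher and 5 lower, in place of 3 higher and 14 lower of 42. The lean towards lower values was thus not seen under that placing, and Ednrb, Robo4 and Sema4d changed sign. Flt3, a cytokine receptor of haematopoietic progenitors and dendritic cells, and Unc50 matched by name only and are neither vascular nor guidance genes.

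Whole lung RNA of mice was measured on 16 Affymetrix arrays, 4 in each of 4 groups, in a model of experimental asthma. The groups were mice of a line titled BALB-RAG given ovalbumin (OVA, an egg protein used as the allergen), BALB-RAG mice given phosphate-buffered saline (PBS), BALB/c mice given OVA, and BALB/c mice given PBS. Lungs were taken on day 22, the day after the last exposure. The titles do not say which Rag allele the BALB-RAG line carries, the labels give no age or sex, and nothing says that replicates were separate animals. The p-values therefore cover only how far these samples vary, and part of that may be technical. Mice without a working Rag1 or Rag2 gene have no mature T or B cells.

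Blood vessels of the lung are lined by endothelium, which carries the VEGF receptors, the Tie receptors, the sphingosine-1-phosphate receptor S1pr1, endoglin and the endothelial Robo4. Signals through Tek (also called Tie2) and S1pr1 are known to keep endothelial junctions tight. Semaphorins, ephrins, Slits and netrins were first known as cues for growing axons, and the same proteins guide vessels, epithelium and immune cells. Several are carried by leukocytes rather than by vessels, Sema4d on lymphocytes being the best known.

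Values are log2 of the deposited intensity, and log2 4 was taken as the background of the arrays. The arrays had median intensities of 18.2 to 20.5, and precision is set by having 4 arrays a group. A gene was tested where it exceeded log2 4 on at least 4 arrays, which 42 of the 61 members did, 35 of them on all 16 arrays. Changes were fitted with limma over all 7276 genes tested, and "called" means a Benjamini-Hochberg adjusted p under 0.05 over all of them. A probe set's level cannot be set against another's, so only the same gene is compared between groups.

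The BALB-RAG PBS arrays and BALB-RAG OVA replicate 2 carried lymphocyte transcripts, which goes against a line without mature lymphocytes. The summed intensity of 13 T cell markers, Cd2, Cd3d and Cd8a among them, ranged from 172 to 557 on the BALB-RAG OVA arrays, from 282 to 388 on the BALB-RAG PBS arrays, from 558 to 1428 on the BALB/c OVA arrays and from 294 to 414 on the BALB/c PBS arrays. The BALB-RAG PBS arrays thus overlapped the BALB/c PBS arrays. The highest BALB-RAG OVA value came from replicate 2 (mean log2 4.95 over the list, against 3.41, 3.67 and 3.59 in replicates 1, 3 and 4). Replicates 1, 3 and 4 were thus under the background of log2 4, as they were for the B and plasma cell list (3.47, 3.56 and 3.51). Igha, the heavy chain of IgA, averaged 9.75 on the 4 BALB-RAG PBS arrays and 7.07 on the 4 BALB/c PBS arrays. The B and plasma cell list as a whole leaned the other way. Of its 12 tested genes 0 were called between these groups, with a median of −0.66 for BALB-RAG against BALB/c. Rag2 was under log2 4 on 15 of 16 arrays, which checks nothing. Whether the title BALB-RAG gives the genotype of these lungs was therefore not settled, and below it names the arrays as titled. Without BALB-RAG OVA replicate 2, 7 members were called in the difference between the lines' responses, against 8 with it, and 18 between the lines after OVA, against 17 with it. All 4 BALB-RAG PBS arrays are concerned, so no comparison against them can be given without them. OVA against PBS in BALB/c takes its means from other arrays but shares the estimate of spread, and fitted on its own 8 arrays it gave 16 called members, 3 higher and 13 lower. Markers of the lung itself were high on every array: Sftpc, the surfactant protein C of alveolar cells, averaged 14.30, 14.20, 14.39 and 14.48 log2 units in the BALB-RAG OVA, BALB-RAG PBS, BALB/c OVA and BALB/c PBS groups.

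**Figure D1:**
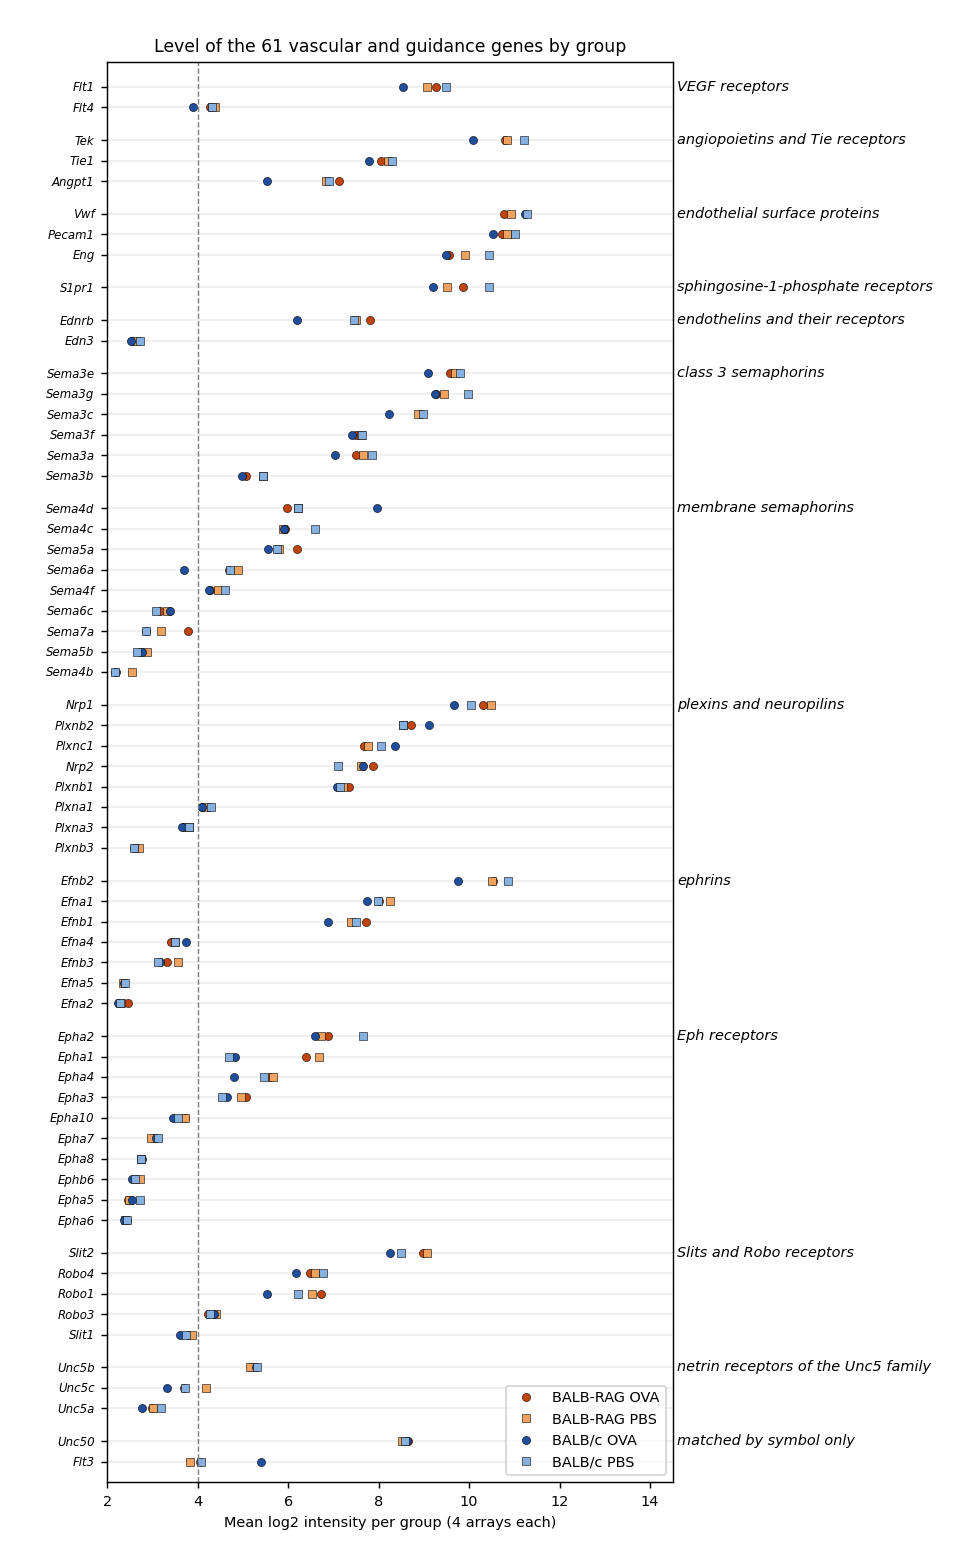
Mean log2 intensity of each of the 61 genes in the 4 groups (4 arrays each), ordered by role, with the background of log2 4 as a dashed line. Levels of different genes cannot be compared. Most Eph receptors and several ephrins lie left of the dashed line in every group, while BALB/c OVA points lie left of the other groups for Angpt1, Tek, Flt1 and Ednrb and right of them for Sema4d and Flt3.

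The vascular members were present as the label says. Vwf (von Willebrand factor) and Pecam1 (CD31), which mark endothelium but are not confined to it, lay between 10.22 and 11.69 and between 9.98 and 11.14 on the 16 arrays. Tek, Tie1, Flt1, Eng, S1pr1 and Robo4 were also above log2 4 on all 16. The guidance families were only partly measurable in lung: 6 of 10 Eph receptors, 4 of 7 ephrins and 4 of 9 membrane semaphorins were not tested. Among them were Epha5, Epha6, Efna5 and Sema4b, with none above log2 4 on any array. Sema7a, which binds integrins and plexin C1, exceeded it on 2 arrays only, at 5.20 on BALB-RAG OVA replicate 3 and 4.93 on BALB-RAG PBS replicate 2.

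Many vascular receptors and ligands were lower after allergen in BALB/c lung. In OVA against PBS lungs of BALB/c mice, 14 of the 42 tested members fell and 3 rose, together 40.5% of them, where 15.5% of all tested genes were called (6.78% lower and 8.73% higher). The median change was −0.45 on the log2 scale over the members and 0.00 over all genes, and 33 of 42 changes were below 0. All 4 OVA arrays lay below all 4 PBS arrays for 15 members (9.24% of all genes) and above them for 3 (10.4%). The members that fell came from every family described here except plexins and neuropilins and the Unc5 receptors, and the falls of over 1 log2 unit were in Angpt1, Ednrb, S1pr1, Tek, Efnb2, Epha2 and Sema6a. In whole lung RNA, fewer cells of a type and less RNA per cell cannot be told apart.

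Both Tek and its ligand Angpt1 fell. Angpt1, the activating ligand of Tek made by cells around the vessel, had 5.78, 5.14, 5.72 and 5.53 log2 units on the BALB/c OVA arrays and 6.74, 6.82, 6.82 and 7.18 on the BALB/c PBS arrays. No OVA array reached the lowest PBS array, a 2.55-fold fall (log2 change −1.35 ± 0.22 SE, adjusted p = 0.000693, limma). Tek itself was at 9.71, 9.54, 10.51 and 10.58 after OVA against 11.01, 10.80, 11.58 and 11.47 after PBS. Replicates 3 and 4 were higher than 1 and 2 in both groups, and within each of these pairs OVA lay below PBS (log2 change −1.12 ± 0.25, adjusted p = 0.00642). Tie1, the orphan partner of Tek, gave −0.49 ± 0.22 and was not called (adjusted p = 0.16), although its 4 OVA arrays (7.63 to 7.98) lay below its 4 PBS arrays (8.03 to 8.61).

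Flt1, the VEGF receptor 1, which binds VEGF-A tightly and also circulates as a soluble decoy, had 8.41, 8.13, 8.73 and 8.84 log2 units after OVA and 9.37, 9.26, 9.63 and 9.68 after PBS in BALB/c lungs. The groups did not overlap, and the fall was 1.94-fold (−0.96 ± 0.21, adjusted p = 0.00521). Flt4, the VEGF receptor 3 of lymphatic vessels, was near background at 3.40 to 4.28 after OVA and 3.86 to 4.75 after PBS, and no change was called (adjusted p = 0.213). Among the other genes of the VEGF pathway, 3 of 9 tested fell and 1 rose. The log2 changes were −0.87 ± 0.18 for Vegfc, a ligand of Flt4, −0.65 ± 0.17 for Vegfa, −0.61 ± 0.16 for the hypoxia factor Epas1 and 0.63 ± 0.18 for Hif1a (adjusted p = 0.00418, 0.0135, 0.0161 and 0.0264).

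Eng, the endothelial coreceptor for TGF-beta and BMP ligands, was at 9.41, 9.12, 9.40 and 10.00 after OVA, against 10.53, 10.55, 10.28 and 10.41 after PBS in BALB/c lungs. Replicate 4 after OVA was the nearest to the PBS arrays and still under all of them (−0.96 ± 0.17, adjusted p = 0.000937). The other 2 endothelial surface proteins were not called. Vwf averaged 11.24 ± 0.42 after OVA and 11.28 ± 0.14 after PBS (SD, n = 4 arrays each), a change of −0.05 ± 0.22. Pecam1 gave −0.48 ± 0.19, not called (adjusted p = 0.103). With the replicate number as a block, Pecam1 was called at the same change (adjusted p = 0.0378). Its change was −0.86 in replicates 1 and 2 and −0.10 in replicates 3 and 4.

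S1pr1, the receptor through which sphingosine-1-phosphate tightens endothelium and guides lymphocytes out of tissue, showed the fall with the smallest p. It had 9.30, 8.61, 9.44 and 9.44 log2 units after OVA and 10.64, 10.30, 10.21 and 10.59 after PBS, a 2.36-fold fall (−1.24 ± 0.18, adjusted p = 0.000294). Replicate 2 after OVA was far below the other 3, and the call held without it. The enzymes that make and break down the ligand were mostly not called: 1 of 8 tested rose, Sgpl1, the lyase that destroys sphingosine-1-phosphate (0.91 ± 0.18, adjusted p = 0.00232).

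Ednrb, the endothelin B receptor that clears endothelin from the lung, was at 6.32, 5.19, 6.32 and 6.95 after OVA and 7.42, 6.95, 7.60 and 7.84 after PBS in BALB/c lungs. The OVA arrays lay below the PBS arrays, though the highest of them met the lowest PBS array to within rounding at 6.95, and the change was −1.26. A second probe set of Ednrb gave −1.27. Edn3 was at background on all arrays. Of 8 other vasoactive genes tested, 4 fell: the natriuretic peptide clearance receptor Npr3 (−1.60 ± 0.33), both subunits of soluble guanylate cyclase, the nitric oxide receptor (Gucy1b1 −0.84 ± 0.20 and Gucy1a1 −0.88 ± 0.23), and angiotensin-converting enzyme, Ace (−0.63 ± 0.17).

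Other endothelial genes moved in the same comparison. Of 30 tested genes of endothelial identity and junctions outside the group, 14 fell and 1 rose in BALB/c lungs after OVA, with a median change of −0.59. Those with the smallest p were Klf4, a flow-induced transcription factor (−1.32 ± 0.20), Cldn5, the claudin of endothelial tight junctions (−0.96 ± 0.15), Clec14a, an endothelial lectin (−1.05 ± 0.20), and Ptprb, the phosphatase that acts on Tek (−1.03 ± 0.20). The one that rose was Procr, the protein C receptor (2.50 ± 0.52, adjusted p = 0.00373). The other 15 were not called. Over the same arrays, markers of alveolar and airway epithelium showed 1 rise and 1 fall among 13 tested, with summed intensities of 57080 to 63590 after OVA and 54630 to 70844 after PBS. Markers of cardiac and skeletal muscle had sums of 515 to 949 after OVA and 1314 to 6359 after PBS, with no overlap, and 1 of 9 was called as lower. Of 5 adipose markers 2 fell, and of 15 fibroblast and smooth muscle markers 2 rose and 2 fell. The part of these lists in the changes of the vascular genes was not tested.

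Ephrins and Eph receptors signal between touching cells, and ephrin-B2 (Efnb2) marks arterial endothelium. Efnb2 had 9.66, 9.57, 9.98 and 9.83 log2 units after OVA and 11.03, 10.37, 11.00 and 11.05 after PBS in BALB/c lungs. Only PBS replicate 2 came near the OVA arrays, and the fall was 2.14-fold (−1.10 ± 0.20, adjusted p = 0.00145), with −1.14 from a second probe set. Epha2, a receptor of epithelium and vessels, was at 6.85, 6.56, 6.13 and 6.82 after OVA and 7.91, 7.34, 7.62 and 7.74 after PBS (−1.06 ± 0.19, adjusted p = 0.00108). The other 2 tested ephrins and 3 tested Eph receptors were not called. Of these, Epha4 gave −0.67 ± 0.29 and Efnb1 −0.63 ± 0.27 (adjusted p = 0.138 and 0.145). A second Epha4 probe set gave −0.08, and a second Efnb1 probe set, tested on its own, was called at −0.78 (adjusted p = 0.0345). None of 10 tested partners of Eph signalling was called by limma in this comparison.

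Class 3 semaphorins are secreted and act through neuropilins and plexins. All 6 had changes below 0 in BALB/c lungs after OVA, from −0.82 to −0.22, and 2 were called. Sema3a, which repels both axons and endothelial cells, was at 7.16, 6.81, 6.86 and 7.34 after OVA and 7.78, 7.63, 7.81 and 8.22 after PBS (−0.82 ± 0.20, adjusted p = 0.00969). Sema3c changed by −0.77, a call lost when any of 4 single arrays was left out (BALB/c OVA replicate 1 or 2, BALB/c PBS replicate 1 or 4, adjusted p 0.0504 to 0.0749). Sema3e, the ligand of plexin D1, and Sema3g were just outside the threshold at −0.71 and −0.74 (adjusted p = 0.084 and 0.0781). The other 2 probe sets of Sema3e, tested on their own, were called at −0.71 each (adjusted p = 0.015 and 0.0212). Sema3e and Sema3g were both called with the replicate block (adjusted p = 0.0025 and 0.0384).

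Membrane semaphorins moved in both directions. Sema4d, also called CD100, which lymphocytes carry and which acts on plexin B1, had 8.28, 7.91, 7.71 and 7.93 log2 units after OVA and 6.38, 6.47, 6.34 and 5.66 after PBS in BALB/c lungs. No PBS array came within 1 log2 unit of the OVA arrays, a 3.35-fold rise with the smallest p of all members (1.74 ± 0.24, adjusted p = 0.000137), and a second probe set gave 1.92. Sema6a was at 3.89, 4.12, 3.61 and 3.15 after OVA and 4.78, 4.74, 4.56 and 4.78 after PBS, so 3 of its 4 OVA values were under background. Raising every value below the background to log2 4 ended its call, and its second probe set gave −0.44. Sema4c fell by 0.68, a call lost without any of 5 single arrays (BALB/c PBS replicates 1, 3 or 4 and BALB/c OVA replicates 3 or 4).

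Plexins and neuropilins, the semaphorin receptors, were mostly not called. Plxnb2, a plexin of epithelium and macrophages, was the only one called by its main probe set, with 9.16, 9.02, 9.24 and 9.06 after OVA against 8.58, 8.58, 8.70 and 8.25 after PBS (0.59 ± 0.13, adjusted p = 0.00566). Nrp1, a coreceptor for both VEGF-A and class 3 semaphorins, gave −0.38 ± 0.18, and Nrp2 gave 0.55 ± 0.23 (adjusted p = 0.166 and 0.127). Both passed with the replicate block, at adjusted p = 0.0241 and 0.0348. Second probe sets of Nrp2 and Plxnc1, tested on their own, were called at 0.82 and 0.91 (adjusted p = 0.0278 and 0.0462). For Nrp2 the change was 0.96 in replicates 1 and 2 and 0.13 in replicates 3 and 4.

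Robo1 binds Slits, and Robo4 is the endothelial member of the Robo family that stabilises vessels. Robo4 had 5.99, 5.98, 6.25 and 6.45 after OVA and 6.78, 6.70, 6.75 and 6.81 after PBS in BALB/c lungs, 1.51-fold lower with no overlap (−0.59 ± 0.12, adjusted p = 0.00357). Robo1 changed by −0.68, and its call was lost without any single one of 7 of the 8 BALB/c arrays. Its change was −0.22 in replicates 1 and 2 and −1.15 in replicates 3 and 4. Slit2, a ligand of Robo1, averaged 8.24 ± 0.32 after OVA and 8.49 ± 0.47 after PBS (SD, n = 4 each), and was not called. Among netrins and other guidance partners 2 of 10 tested fell, the netrin receptor Neo1 (−0.66 ± 0.16) and the plexin B effector Arhgef12 (−0.81 ± 0.23), and 1 rose, the plexin effector Mical1 (0.83 ± 0.18).

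Flt3, which passed the filter on 9 arrays, rose as well. It was at 6.09, 5.41, 4.87 and 5.22 after OVA and 3.97, 4.03, 4.39 and 3.93 after PBS in BALB/c lungs, 2 of the PBS values being under background (1.31 ± 0.21, adjusted p = 0.000605). Over the same arrays 12 of 16 tested markers of macrophages and dendritic cells rose, none fell, and their summed intensity was 38286 to 54393 after OVA and 22068 to 31162 after PBS. Of the T cell markers 8 of 13 rose and none fell, though Ctla4 and Icos among the 8 were under log2 4 on every array outside BALB/c OVA and passed the filter through that group alone. Of the B and plasma cell markers 5 of 12 rose. Of 7 proliferation genes 6 rose. The OVA and PBS groups did not overlap in the summed intensity of these 3 leukocyte lists. They did overlap for NK cell markers (344 to 1549 after OVA, 253 to 797 after PBS), with 0 of 4 tested called. Eosinophil and neutrophil markers overlapped too (870 to 1928 and 527 to 6329), with 0 of 5 tested called. The part of these lists in the changes of Sema4d, Flt3 and Plxnb2, or in those of the vascular genes, was not tested.

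**Figure D2:**
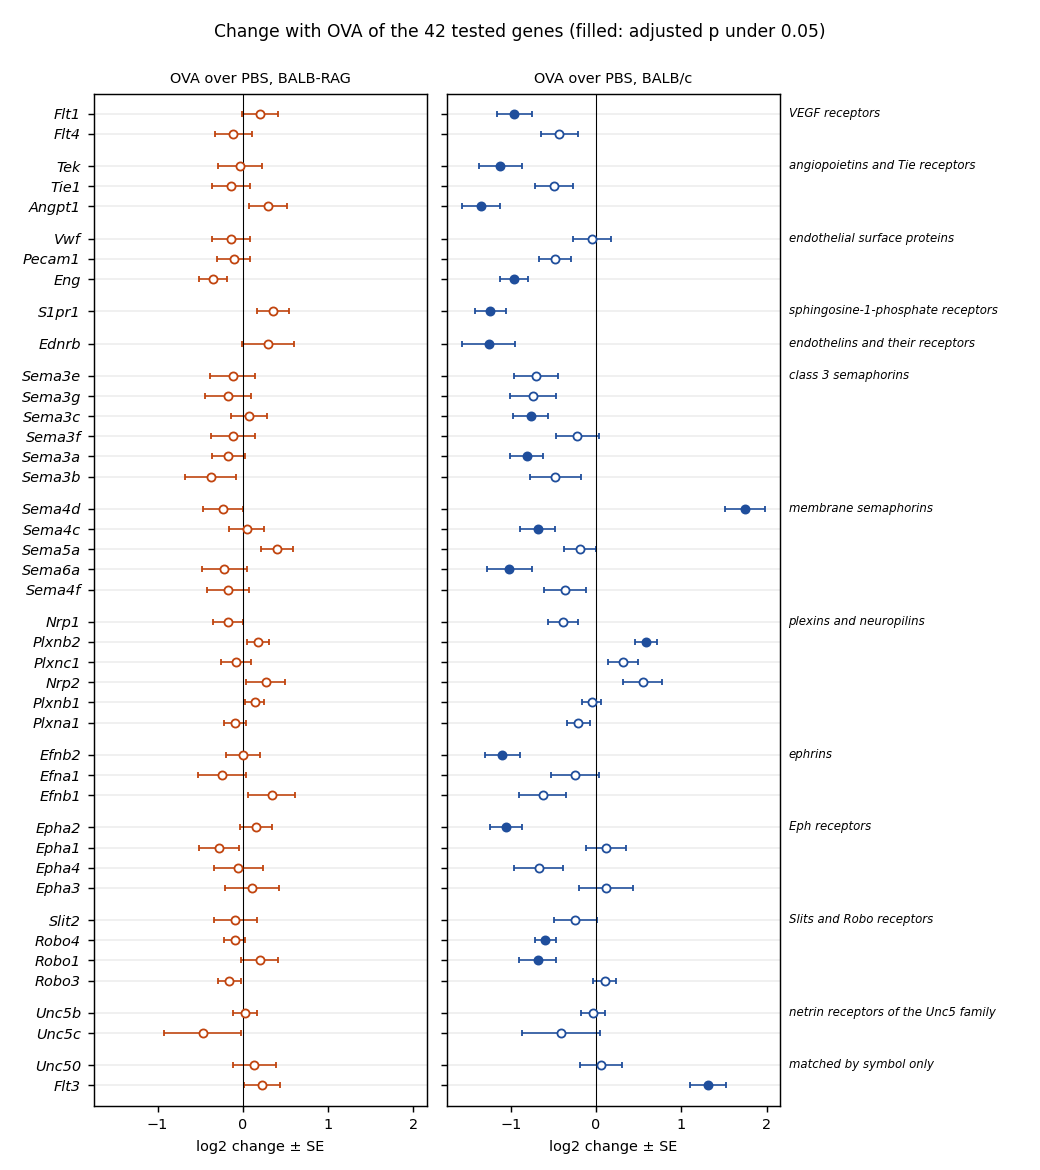
Change with OVA over PBS (log2, point, with its SE as a bar) of the 42 tested genes in BALB-RAG lungs (left) and BALB/c lungs (right), ordered by role. Filled points were called at an adjusted p under 0.05: 0 on the left, and 3 to the right of zero and 14 to the left of it on the right.

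Promoter windows of the members were searched for words that vascular transcription factors bind. Of the 61 members 51 had a promoter window in the RefSeq table of GRCm38.p6. The 250 bases before the start were searched on both strands for a form of the sites that ETS factors of endothelium bind. Other forms of these sites were not searched. The word was AGGAAG, read CTTCCT on the opposite strand. It occurred in 4 of the 11 windows held for members that fell (36.4%), in 11 of 23 windows of the other tested members (47.8%) and in 29.5% of all 32851 windows. The GC box GGGCGG occurred in 5 of the 11, in 17 of the 23 and in 32.7% of all windows, the KLF word CACCC in 8, in 20 and in 52.0%, and the forkhead word TGTTTAC in 0 of 11, 0 of 23 and 3.17%. Matches of different words may overlap in a window. A match is only a run of letters, and no match says nothing about a factor. Windows of 5 members that fell are given to show both cases, with AGGAAG or CTTCCT in capitals. The coordinates, read 5′ to 3′ along the gene's strand, are chr5:147726012-147726261 (minus strand) for Flt1, chr4:94739039-94739288 (plus) for Tek, chr2:32646345-32646594 (plus) for Eng, chr9:37401722-37401971 (plus) for Robo4 and chr8:8661243-8661492 (minus) for Efnb2.
Flt1: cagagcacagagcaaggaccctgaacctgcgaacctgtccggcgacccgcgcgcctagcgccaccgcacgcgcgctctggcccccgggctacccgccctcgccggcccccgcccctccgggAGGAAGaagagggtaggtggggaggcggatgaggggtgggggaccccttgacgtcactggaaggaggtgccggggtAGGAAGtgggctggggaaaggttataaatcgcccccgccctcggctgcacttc
Tek: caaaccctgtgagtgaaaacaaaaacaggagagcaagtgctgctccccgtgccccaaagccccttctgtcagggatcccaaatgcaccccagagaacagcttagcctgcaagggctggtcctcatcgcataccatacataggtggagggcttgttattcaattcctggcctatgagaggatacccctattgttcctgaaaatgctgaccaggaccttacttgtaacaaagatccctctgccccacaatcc
Eng: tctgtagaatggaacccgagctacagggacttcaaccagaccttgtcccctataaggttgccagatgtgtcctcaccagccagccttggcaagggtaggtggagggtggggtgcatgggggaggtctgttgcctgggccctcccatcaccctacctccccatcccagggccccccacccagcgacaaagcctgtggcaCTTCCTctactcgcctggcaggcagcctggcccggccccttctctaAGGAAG
Robo4: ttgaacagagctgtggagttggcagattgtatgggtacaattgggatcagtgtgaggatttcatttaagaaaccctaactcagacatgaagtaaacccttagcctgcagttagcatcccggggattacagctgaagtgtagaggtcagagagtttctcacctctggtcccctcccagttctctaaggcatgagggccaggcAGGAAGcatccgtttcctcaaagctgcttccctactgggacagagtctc
Efnb2: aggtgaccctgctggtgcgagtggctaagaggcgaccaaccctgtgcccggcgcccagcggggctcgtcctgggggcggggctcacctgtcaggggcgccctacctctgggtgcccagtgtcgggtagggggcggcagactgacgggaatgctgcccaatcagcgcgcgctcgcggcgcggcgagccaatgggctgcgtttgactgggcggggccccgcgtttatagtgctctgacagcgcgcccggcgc
Flt1 and Eng each hold the word AGGAAG or CTTCCT at 2 places and Robo4 at 1. Tek and Efnb2, which also fell, do not hold this word, and shorter or other forms of ETS sites were not searched.

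The same members showed no called change with OVA in BALB-RAG lungs. In OVA against PBS lungs titled BALB-RAG, 0 of 42 were called by limma, where 0.165% of all tested genes were (0.137% higher and 0.0275% lower), and 1 had an unadjusted p under 0.05. The median change was −0.08 over the members and 0.02 over all genes. The OVA and PBS arrays did not overlap for 3 members: OVA was above PBS for S1pr1 (2.67% of all genes) and below it for Eng and Sema3b (1.95%). S1pr1 was at 9.83, 9.64, 10.11 and 9.91 after OVA and 9.24, 9.63, 9.58 and 9.63 after PBS (0.35 ± 0.18, adjusted p = 0.697). Eng, with 9.53, 9.37, 9.61 and 9.69 after OVA and 10.16, 9.90, 9.75 and 9.80 after PBS, gave −0.35 ± 0.17 (adjusted p = 0.645). Angpt1 averaged 7.12 ± 0.25 after OVA and 6.83 ± 0.50 after PBS, and Sema4d 5.97 ± 0.39 and 6.21 ± 0.38 (SD, n = 4 each). None of the 30 endothelial genes, 9 VEGF pathway genes or 8 vasoactive genes tested was called by limma either. Leaving out any one of the 8 BALB-RAG arrays kept the number at 0, as did the replicate block.

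Whether the responses of the lines differed was tested directly. The OVA response of BALB-RAG minus that of BALB/c was called for 8 of 42 members, where 8.49% of all genes were called (3.86% higher and 4.63% lower). It was above 0 for 6, Angpt1, S1pr1, Ednrb, Epha2, Flt1 and Efnb2, and below 0 for 2, Sema4d and Flt3. The largest differences were −1.98 ± 0.33 for Sema4d, 1.64 ± 0.32 for Angpt1 and 1.59 ± 0.26 for S1pr1 (adjusted p = 0.00158, 0.00433 and 0.00133). Epha2 differed by 1.21 ± 0.26 and Flt1 by 1.16 ± 0.30 (adjusted p = 0.00912 and 0.0233). Efnb2 differed by 1.10 ± 0.28, Ednrb by 1.56 ± 0.43 and Flt3 by −1.09 ± 0.30 (adjusted p = 0.0252, 0.0369 and 0.0361). Epha2 and S1pr1 were already lower in BALB-RAG than in BALB/c lungs after PBS (−0.93 and −0.92). After OVA the lines differed by 0.28 for Epha2, not called by limma (adjusted p = 0.314), and by 0.68 for S1pr1. For each of the 8 the sign was the same in replicates 1 and 2 and in replicates 3 and 4. Angpt1, Epha2, S1pr1 and Sema4d stayed called without any single array. The other 4 did not, and the count fell to 4 without BALB/c OVA replicate 1, BALB/c OVA replicate 2, BALB/c PBS replicate 4 or BALB-RAG OVA replicate 4, and to 5 without BALB-RAG OVA replicate 1 or 3. For Tek and Eng the difference did not pass (1.09 and 0.61, adjusted p = 0.075 and 0.131), although each fell in BALB/c lungs. With the replicate block 12 members were called, Tek, Robo4, Sema3a and Sema5a being added (adjusted p = 0.0016, 0.0455, 0.0494 and 0.0231). The BALB-RAG OVA and PBS samples in this difference are not read as paired by number, since the lowest r was 0.03 (r of 0.12, 0.03, 0.48 and 0.20 for replicates 1 to 4).

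**Figure D3:**
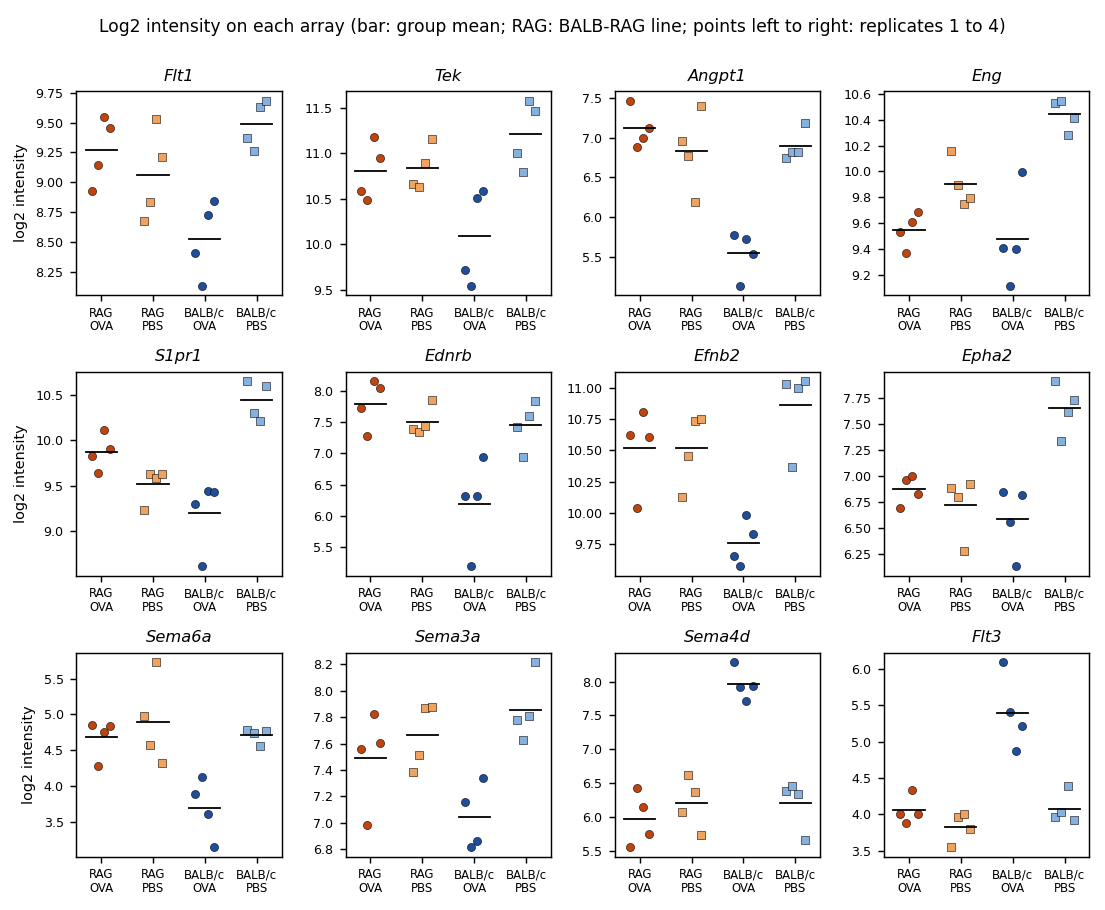
Log2 intensity of 12 genes on each of the 16 arrays (4 points per group, replicates 1 to 4 from left to right, bar at the mean), in BALB-RAG OVA, BALB-RAG PBS, BALB/c OVA and BALB/c PBS lungs; each panel has its own axis. In the first 10 panels the BALB/c OVA arrays hold the lowest mean, in the last 2 the highest.

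The lines differed in few members without allergen. Between BALB-RAG PBS and BALB/c PBS lungs 3 of 42 members were called, where 3.90% of all genes were (1.97% higher and 1.94% lower). The BALB-RAG arrays lay above the BALB/c arrays for 1 member (4.21% of all genes) and below them for 5 (5.44%). Epha1, an Eph receptor of epithelium, was the 1 that was higher in BALB-RAG. It had 5.76, 6.96, 6.80 and 7.16 log2 units on the BALB-RAG PBS arrays and 4.69, 4.65, 4.76 and 4.68 on the BALB/c PBS arrays. The BALB/c arrays lay close together, all below the BALB-RAG arrays, and the difference was 3.94-fold (1.98 ± 0.23, adjusted p = 0.000252). Epha2, with 6.89, 6.80, 6.28 and 6.92 in BALB-RAG PBS lungs against 7.91, 7.34, 7.62 and 7.74 in BALB/c PBS lungs, was lower (−0.93 ± 0.19, adjusted p = 0.0111). So was S1pr1, with 9.24, 9.63, 9.58 and 9.63 against 10.64, 10.30, 10.21 and 10.59 (−0.92 ± 0.18, adjusted p = 0.0116). Sema4c and Eng were the nearest outside the threshold (−0.71 ± 0.20 and −0.54 ± 0.17, adjusted p = 0.0657 and 0.0865). Same-numbered samples correlated across these groups (r of 0.32 to 0.35), but for most replicates a sample of another number correlated better. With the replicate block 6 members were called. Slit2 (0.58 ± 0.10) and Nrp1 (0.43 ± 0.11) were added as higher and Flt1 (−0.42 ± 0.11) as lower, with adjusted p = 0.00515, 0.0344 and 0.0376. Marker genes of several other cell types moved with this comparison. Of 7 proliferation genes 4 were higher in BALB-RAG PBS lungs, and the sums of the 10 measured did not overlap, at 589 to 734 there and 279 to 346 in BALB/c PBS lungs. Of adipose genes all 5 tested were higher in BALB-RAG PBS lungs, and the summed intensity of the 6 measured was 1551 to 9910 there and 431 to 1926 in BALB/c PBS lungs. Of 15 fibroblast and smooth muscle genes 6 were higher. Their part in the line differences was not tested.

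More members were called between the lines after allergen. Between BALB-RAG OVA and BALB/c OVA lungs 17 of 42 members were called, 13 higher and 4 lower in BALB-RAG, where 23.8% of all genes were called (11.6% higher and 12.1% lower). The median difference was 0.30 over the members and 0.01 over all genes, and all 4 BALB-RAG arrays lay above all 4 BALB/c arrays for 14 members (13.3% of all genes) and below them for 4 (13.6%). This comparison shares the BALB/c OVA arrays with the one in BALB/c lung, so the 2 sets of values are not independent. Angpt1 was 2.98-fold higher (6.89 to 7.47 in BALB-RAG OVA lungs against 5.14 to 5.78 in BALB/c OVA lungs, 1.58 ± 0.22, adjusted p = 0.000108). Ednrb was higher by 1.61 ± 0.31, Efnb2 by 0.76 ± 0.20 and S1pr1 by 0.68 ± 0.18 (adjusted p = 0.00122, 0.0116 and 0.0141). Sema6a was also called as higher, but 3 of its 4 BALB/c OVA values were under background, and raising those to log2 4 ended the call. Among the lower ones were Sema4d (−1.99 ± 0.24, adjusted p = 2.43e-05) and Flt3 (−1.34 ± 0.21, adjusted p = 0.000296).

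Epha1, Robo1, Nrp1 and Plxnc1 were among the members called here. Epha1 was at 6.54, 6.09, 6.31 and 6.64 in BALB-RAG OVA lungs and 4.63, 4.80, 4.76 and 5.06 in BALB/c OVA lungs (1.58 ± 0.23, adjusted p = 0.000148), a gap of the same direction as after PBS. Robo1, a receptor for Slit2, had 7.10, 6.57, 6.71 and 6.52 in BALB-RAG OVA lungs against 5.65, 5.65, 5.19 and 5.69 in BALB/c OVA lungs (1.18 ± 0.22, adjusted p = 0.000916), with no overlap. Nrp1 was higher at 10.13, 10.06, 10.54 and 10.47 against 9.58, 9.49, 9.80 and 9.80 (0.63 ± 0.18, adjusted p = 0.0152). Plxnc1, the receptor of Sema7a on leukocytes, was lower at 7.65, 7.51, 7.74 and 7.84 against 8.61, 8.54, 8.26 and 8.03 (−0.68 ± 0.18, adjusted p = 0.0104), and its second probe set gave −1.62. The other called members were Flt1, Sema3c, Sema5a, Efnb1 and Slit2, higher by 0.64 to 0.84, and Plxnb2 at −0.41.

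The count after OVA depended on single arrays. Without BALB/c OVA replicate 2 it was 11, and 10 of the 17 were called without any single array. The 7 that were not were Efnb1, Flt1, Nrp1, Plxnb2, Sema3c, Sema5a and Slit2. With the replicate block 23 were called, adding Tek, Sema3e, Sema3a, Epha4, Robo4 and Plxnb1 as higher in BALB-RAG (adjusted p = 0.000787 to 0.0485). After OVA 5 of 9 cardiac and skeletal muscle genes and 4 of 5 adipose genes were higher in BALB-RAG lungs, with summed muscle intensities of 2293 to 13235 against 515 to 949. Of 15 fibroblast and smooth muscle genes 8 were higher and 2 lower, with sums of 10412 to 11652 against 6213 to 9265. All 7 proliferation genes were lower, with sums of 205 to 317 against 1052 to 1986, as were 3 of 4 NK cell genes, with sums of 74.5 to 197 against 344 to 1549. Of the macrophage and dendritic cell markers 13 of 16 were lower, with sums of 24462 to 26142 against 38286 to 54393, and of the T cell markers 11 of 13. The 13 include Ctla4 and Icos, which passed the filter through the BALB/c OVA arrays alone, so their direction here was fixed by the filter. The part of these lists in the differences of the members was not tested.

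**Figure D4:**
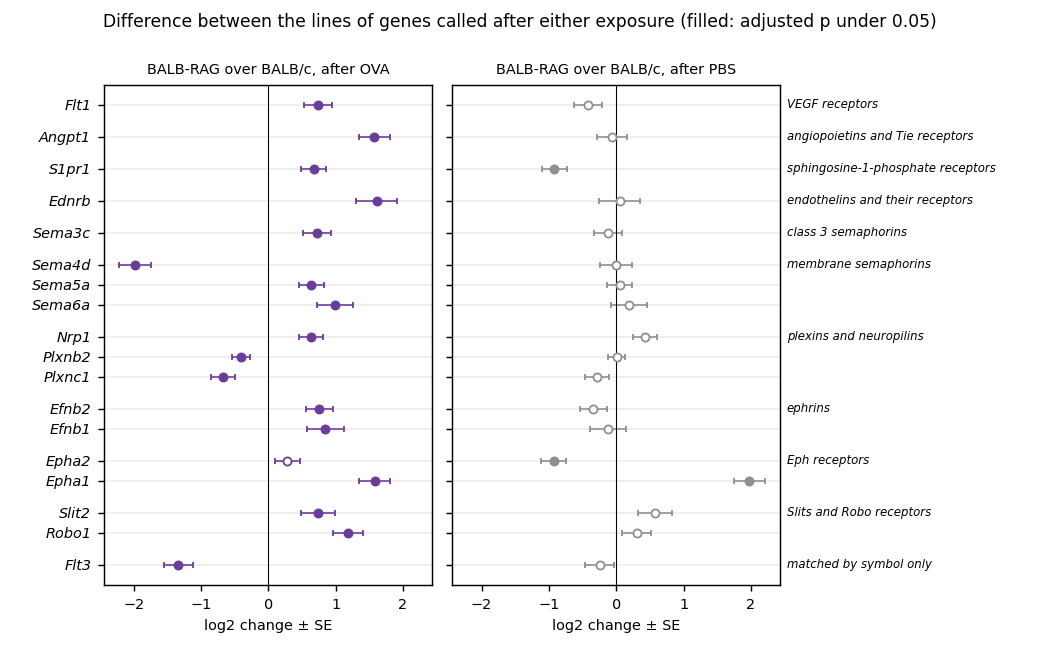
Difference BALB-RAG over BALB/c (log2, point, with its SE as a bar) of the 18 genes called after OVA (left) or after PBS (right). Filled points were called at an adjusted p under 0.05. Epha1 lies right of zero in both panels, while Epha2 and S1pr1 lie left of zero after PBS and right of it after OVA.

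Beyond the members, genes of the same pathways differed between the lines after OVA as well. Of the 30 endothelial genes 11 were higher and 3 lower in BALB-RAG OVA than in BALB/c OVA lungs, and 4 of 9 VEGF pathway genes were higher. Vegfc was higher by 1.40 (adjusted p = 5.22e-05), Clec14a by 1.20 (adjusted p = 0.000416) and Acvrl1, the receptor that acts with endoglin, by 0.92 (adjusted p = 0.000221). Vcam1, the adhesion molecule for leukocytes, was lower (−1.19, adjusted p = 1.82e-05). It was already lower in BALB-RAG lungs after PBS (−0.68, adjusted p = 0.0116), and its responses were not called as different (−0.51, adjusted p = 0.128). The OVA responses of the lines differed for Vegfc, Klf4 and Ptprb by 1.22, 1.75 and 1.30 (adjusted p = 0.00808, 0.00142 and 0.00946). Klf4 was already lower in BALB-RAG lungs after PBS (−1.33, adjusted p = 0.00193). After OVA Klf4 was not called between the lines by limma (0.41, adjusted p = 0.167). Of the 30 endothelial genes 7 had a called difference above 0 and 1 below it, Cd34 (−0.82, adjusted p = 0.0113). Cd34 was already higher in BALB-RAG lungs after PBS (0.53, adjusted p = 0.0334) and was not called between the lines after OVA (−0.30, adjusted p = 0.118, limma).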

How the data were processed

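Values are linear probe set intensities of 16 arrays as deposited by the authors, made with GCRMA per the submitters' processing notes. The version and annotation build are not given in the sources used here, and GCRMA pulls dim probe sets towards a common floor. Labels and values of the deposited table are out of step, as described with the choice of genes. The shifts of the first and last stretch are those of the member rule and were checked by the correlation of probe sets of one gene, with the members left out. The direction of the second, which holds 7500 labels, was taken from that correlation against the rule. Of 45101 labels 14300 were placed (64 rows above in the first stretch, 47 below in the second and 16168 below in the last) and the rest were not used. Of the placed labels 13146 had 1 gene symbol, 366 several and 788 none, and only the first kind was named.

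The probe set with the highest mean stood for each gene, and log2 intensities were used without further scaling. Group means of all 16 arrays (12 residual degrees of freedom) entered 1 fit (limma 3.58.1, R 4.3.3), adjusted by Benjamini-Hochberg over 7276 genes. The script was tested on simulated data. Full statistics were planned for called members, at most 12 by smallest p in each comparison, and pathway lists were limited to about 4 named genes. The symbol pattern and the lists were drawn up with earlier results of these data known. Replicate numbers are from the titles. Deviations of same-numbered samples correlated with r of 0.30 to 0.46 in OVA against PBS of BALB/c, 0.32 to 0.35 between lines after PBS and 0.18 to 0.33 after OVA. By the limit of 0.1 these are read as paired, though the main fit holds no term for replicate number. In OVA against PBS of BALB-RAG r was 0.12, 0.03, 0.48 and 0.20 for replicates 1 to 4. These are not read as paired, since the lowest r is under the limit. The best partner had another number for 2, 3 and 2 of the 4 replicates in the first 3 of these comparisons. Replicates 1 and 2 stood apart from 3 and 4 on the first principal component of the deviations, with 38.4% of their variance, and changes within each pair were computed. The r of same-numbered samples cannot tell pairing by number from this split. Other scalings, filters, fits, probe set rules and subsets of arrays were tried. Promoter windows are from RefSeq (GRCm38.p6).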

Additional observations from a re-analysis of the deposited data

Results flagged for a closer look

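In 8 of 167 groups of 4 arrays tested (4.79%), 1 array stood far from the other 3, and chance gives about 1 in 20. In S1pr1, BALB-RAG PBS replicate 1 was at 9.24 (others 9.58 to 9.63) and BALB/c OVA replicate 2 at 8.61 (others 9.30 to 9.44). In Efnb2, BALB/c PBS replicate 2 was at 10.37 (others 11.00 to 11.05). In Sema4d, BALB/c PBS replicate 4 was at 5.66 (others 6.34 to 6.47). In Robo1, BALB/c OVA replicate 3 was at 5.19 (others 5.65 to 5.69). In Sema6a, BALB-RAG OVA replicate 2 was at 4.29 (others 4.76 to 4.85). In Unc5b, BALB-RAG OVA replicate 1 was at 5.07 (others 5.22 to 5.23) and BALB-RAG PBS replicate 3 at 4.83 (others 5.25 to 5.28).

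The OVA response differed between the lines for 8 genes by limma's test of the difference. BALB-RAG minus BALB/c was 1.64 for Angpt1, 1.59 for S1pr1, 1.56 for Ednrb, 1.21 for Epha2, 1.16 for Flt1, 1.10 for Efnb2, −1.09 for Flt3 and −1.98 for Sema4d on the log2 scale.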

How the results depend on the processing

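Of 45 named results, 11 kept their direction and side of the threshold under all alternatives planned beforehand. Leaving out 1 array at a time gave 14 to 18 called members in OVA against PBS of BALB/c, 0 in BALB-RAG, 4 to 11 in the difference of the responses, 3 between the lines after PBS and 11 to 18 after OVA. With the replicate block the counts were 22, 0, 12, 6 and 23, and no call was lost. A term for replicates 1 and 2 against 3 and 4 gave 7 between the lines after PBS. Replicates 3 and 4 alone gave 8 in BALB/c, 1 in the difference, 1 between the lines after PBS and 9 after OVA, against 17, 8, 2 and 16 for replicates 1 and 2 alone; the cause was not tested. Placing the second stretch of labels 47 rows above, an alternative added after seeing the data, gave 11 (6 higher, 5 lower) in BALB/c and 4 in the difference. This placing gave 0 between the lines after PBS and 12 after OVA, 6 higher and 6 lower in place of 13 higher and 4 lower. It turned the sign of Ednrb (0.72), Robo4 (1.95) and Sema4d (−0.20) in BALB/c, of Ednrb (−1.03) and Sema4d (0.027) in the difference, of Epha1 (−0.16) after PBS, and of Ednrb (−0.86), Epha1 (−0.86), Plxnc1 (0.18), Sema4d (0.035) and Slit2 (−0.30) after OVA, since these labels then take other probe sets' values. Values under log2 4 set to 4 cost 2 calls, both of Sema6a. Signal near background limits Flt3, Flt4, Sema6a and the 19 members not tested.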
